A study of Homo sapiens with 24 samples.

Results

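Translation initiation and elongation factors are the proteins that load ribosomes onto messenger RNA and move them along it. The set described here held the protein-coding genes with a symbol that begins with EIF1 to EIF6, EEF1 or EEF2, which includes the regulators and modifying enzymes that share these symbols. Of 71 such genes in GENCODE 29, 63 were listed among the 12285 genes of the expression table, and 8 were not (EEF1AKMT4, EEF1AKMT4-ECE2, EEF1E1-BLOC1S5, EIF1AY, EIF2S3B, EIF3CL, EIF4E1B and EIF5AL1). The listed factors were followed by RNA sequencing in K562, an established human leukaemia line with erythroid features, after centrifugal elutriation, which selects cells of like size and so of like cell-cycle stage. All cells grew in RPMI with 10% bovine calf serum, penicillin and streptomycin, with no other treatment, and 24 libraries were made, 1 at each time point from 0 h to 46 h in steps of 2 h. There were no replicates, so a single level had no error of its own, and the spread given below is the standard deviation (SD) over time points.

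In eukaryotic initiation, eIF2 brings the initiator tRNA to the small ribosomal subunit as a complex with GTP, and eIF2B recharges it with GTP afterwards. The kinases EIF2AK1 to EIF2AK4 phosphorylate the alpha subunit of eIF2, which blocks eIF2B and lowers initiation in stress. The complex eIF4F binds the cap of the messenger through eIF4E, and the eIF4E-binding proteins hold eIF4E away from it until mTOR phosphorylates them. eIF3 is the large scaffold on the small subunit, eIF5 and eIF5B complete subunit joining, and eEF1 and eEF2 deliver aminoacyl-tRNA and drive translocation. Many of the messengers of these factors, like those of ribosomal proteins, begin with a run of pyrimidines at the cap, the 5′ TOP motif, through which mTOR controls their translation.

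All 11 erythroid markers examined were listed, with a summed level of 2976 to 8176 FPKM (fragments scaled to transcript length and to library size), 3288 at 16 h and 2976 at 18 h and at least 4353 at the other 22 time points. In bulk RNA, fewer cells of a type and less RNA per cell cannot be told apart, and the part of this shift in the results below was not tested. Of 5 fibroblast markers, 1 (COL1A2) was listed, with a mean of 2.93 FPKM. The 16 h and 18 h libraries, which the study singles out as anomalous, stood apart: 102 and 115 genes were at 0 there, against 4 to 58 at the others. The FPKM of all genes summed to 456791 to 591309 per library. Levels were therefore described over the other 22 time points first, and these libraries separately.

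The factors together took 2.01% to 2.14% of all FPKM at the 22 time points (median 2.07%), 2.20% at 16 h and 2.22% at 18 h. All 63 averaged 1 FPKM or more, 30 of them 100 FPKM or more and 10 below 10 FPKM. FPKM is per transcript length, so levels can be ordered between genes. The translocase EEF2 had the highest mean level, 816 ± 53.7 FPKM (SD, 22 time points), followed by EIF4A1, the helicase of eIF4F, at 645 ± 62.1 and by EEF1A1, which carries aminoacyl-tRNA, at 641 ± 54.6. EEF2 ranged from 761 to 991 FPKM. EIF4A1 ranged from 553 to 764 FPKM and EEF1A1 from 494 to 714 FPKM, so the levels of the second and the third did not differ beyond their spread, and the first and the second touched at the ends of their ranges. EEF1A1 has many processed pseudogenes, and how reads shared with them were assigned is not stated.

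Within eIF3, the most abundant subunit by level was EIF3M at 512 ± 45.6 FPKM, and the other listed subunits apart from EIF3C spanned a 9.37-fold range of levels down to EIF3F at 54.7 ± 4.93 FPKM. EIF3C was listed at 4.23 ± 1.06 FPKM. It has a near-identical copy, EIF3CL, that was not listed, and its level is uncertain for that reason. Among the subunits of eIF2 itself, EIF2S3 (gamma) had 267 ± 44.7 FPKM, EIF2S1 (alpha) 207 ± 42.9 and EIF2S2 (beta) 67.6 ± 6.31. Levels of eIF2B subunits lay between 28.8 FPKM (EIF2B2) and 84.0 FPKM (EIF2B3). Of the eIF2 kinases, the haem-regulated EIF2AK1 was the most abundant at 107 ± 8.24 FPKM, against 17.1 ± 2.14 for EIF2AK4 (GCN2, which senses uncharged tRNA), 14.2 ± 1.95 for EIF2AK2 (PKR, which binds double-stranded RNA) and 4.49 ± 0.70 for EIF2AK3 (PERK, of the endoplasmic reticulum). EIF2AK1 held 72.4% to 78.0% of the summed FPKM of the kinases at the 22 time points.

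One paralog dominated in each pair examined. EIF1, which guards start codon choice, had 438 ± 44.7 FPKM and EIF1B 104 ± 11.3 FPKM. The ratio of EIF4A1 to EIF4A2 was 1.99 to 2.98, and that of EEF1A1 to EEF1A2, the form known from muscle and neurons, was 52.1 to 154. EIF5A, the hypusine-bearing factor that helps ribosomes past stalling sequences, exceeded EIF5A2 by 32.4 to 70.5 times. Among repressors of eIF4E, EIF4EBP1 had 74.3 ± 8.49 FPKM, EIF4EBP2 45.9 ± 2.72 and EIF4EBP3 1.31 ± 0.54. The sum of EIF4EBP1 and EIF4EBP2 was 2.10 to 4.22 times the level of EIF4E. Of the methyltransferases that modify eEF1A, EEF1AKMT2 had the highest level at 20.9 ± 1.91 FPKM.

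**Figure D1:**
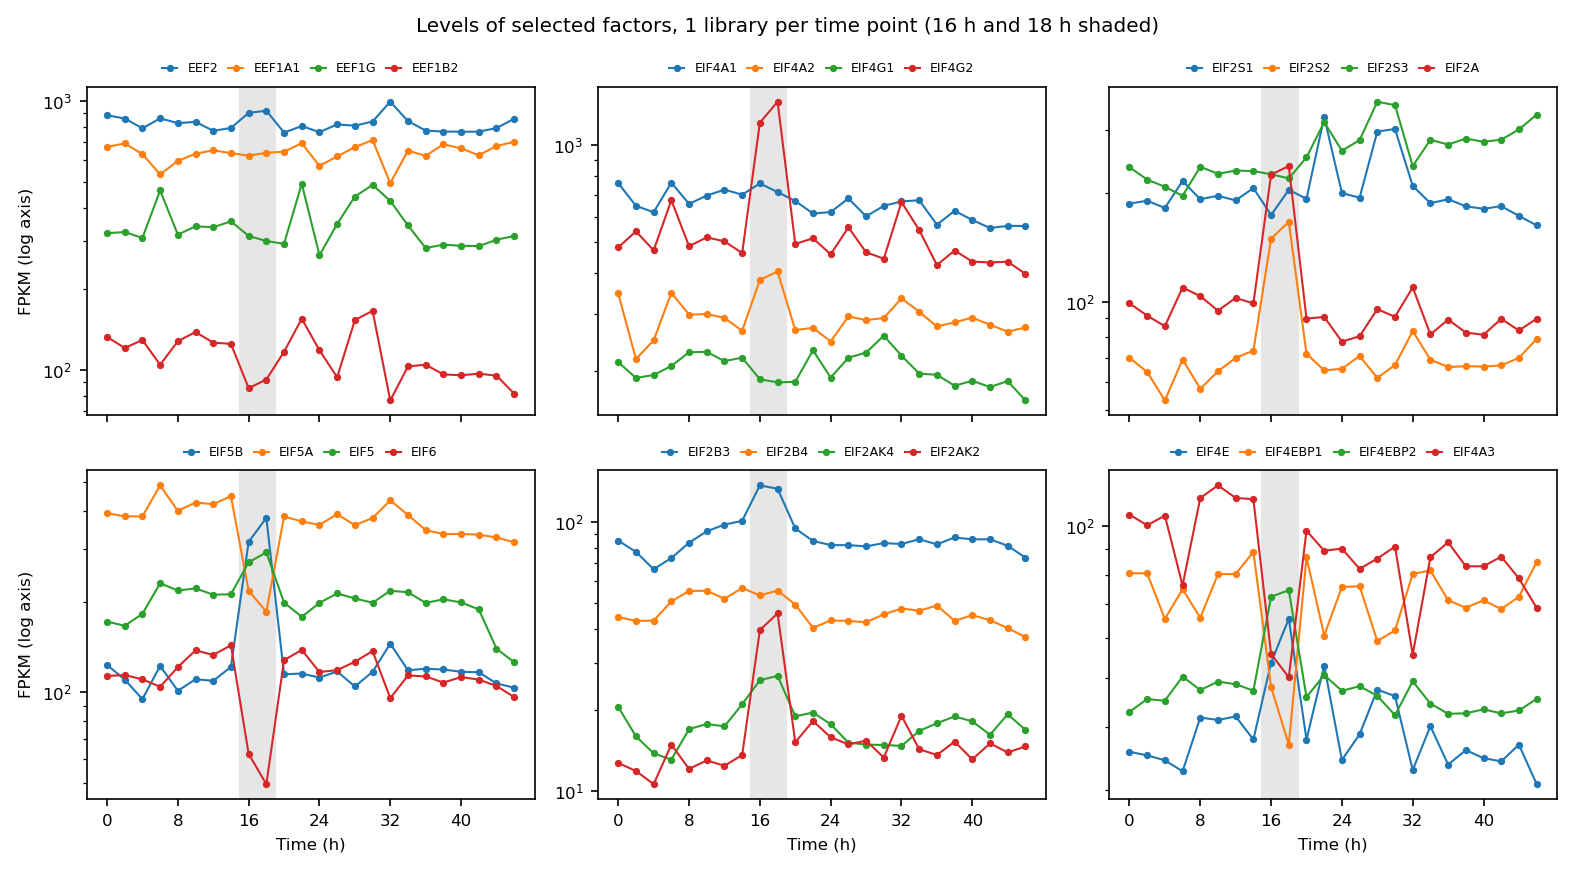
FPKM (log axis) of 24 selected factors against time after elutriation in hours, with 1 library per point and 16 h and 18 h shaded. EIF5B, EIF4G2, EIF2A and EIF2AK2 stand above and EIF6 and EIF5A below their other levels in the shaded libraries, EIF2S1 and EEF1G are high at 22 h, 28 h and 30 h, and EEF2 and EEF1A1 stay near their mean.

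Outside the anomalous libraries the levels of 25 of 63 factors (39.7%) kept a highest to lowest ratio of FPKM + 1 below 1.5, against 32.2% of the 12253 genes that averaged 1 FPKM or more. The most even was EIF4EBP2, with a ratio of 1.2, followed by EIF3K and EIF3D at 1.26 each and by EEF2K, the kinase that inactivates eEF2, at 1.26. The least even were EIF3C at 2.56, EEF1A2 at 2.48, EIF4EBP3 at 2.34 and EIF2B5, the catalytic subunit of eIF2B, at 2.26. Of the eIF3 subunits, 8 of 13 were below 1.5, and of the eIF2B subunits 1 of 5. At a mean of 10 FPKM or more the gap was smaller, with 25 of 55 factors (45.5%) below 1.5, against 41.3% of all genes at that level. The highest or lowest level of 37 of 63 factors lay at 6 h or 32 h, the 2 time points that deviate mildly, against 43.1% of all genes, and without them 40 factors (63.5%) were below 1.5, against 42.7% of all genes.

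At 16 h and 18 h the factors split. The deviation of a gene was the mean distance of its 16 h and 18 h values from a line drawn from 14 h to 20 h, on the log2(FPKM + 1) scale, which understates differences of low genes. Of 63 factors, 42 lay above 0, against 58.1% of all genes, 11 were at least 2-fold above their flanks, against 8.95%, and 4 at least 2-fold below, against 7.11%. The share above 2-fold was 17.5% of the factors and the share below 6.35%. The median deviation was 0.34 over the factors and 0.14 over all genes. No test was made of these deviations, since each time point is 1 library, and the other pairs of time points stand as a reference. At 16 other consecutive pairs of time points the median over the factors was -0.13 to 0.08, and none of the factors was 2-fold off. The deviation of 47 factors lay outside the range of its own 16 reference pairs, against 71.6% of all genes, and in 39 both values lay above or both below all others, against 50.6%.

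The counts shifted with the scaling. With each time point centred on its median, 8 factors were 2-fold above, against 6.48% of all genes, and 6 below, against 9.21%. With upper-quartile scaling 6 were above, against 4.73%, and 6 below, against 10.6%. The median over all genes moved from 0.14 to 0.02 and -0.06, and that of the factors to 0.23 and 0.11. Of the 15 factors 2-fold off, EIF2A, EIF2AK2, EIF3J and EIF5B share exon sequence with a listed gene on the other strand, and without a stated strand setting reads of such pairs may be mixed. The sign of 8 factors turned with the scaling: EEF1AKMT1, EEF2, EIF2B4, EIF3B, EIF3G, EIF4A1, EIF4B and EIF4G3.

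**Figure D2:**
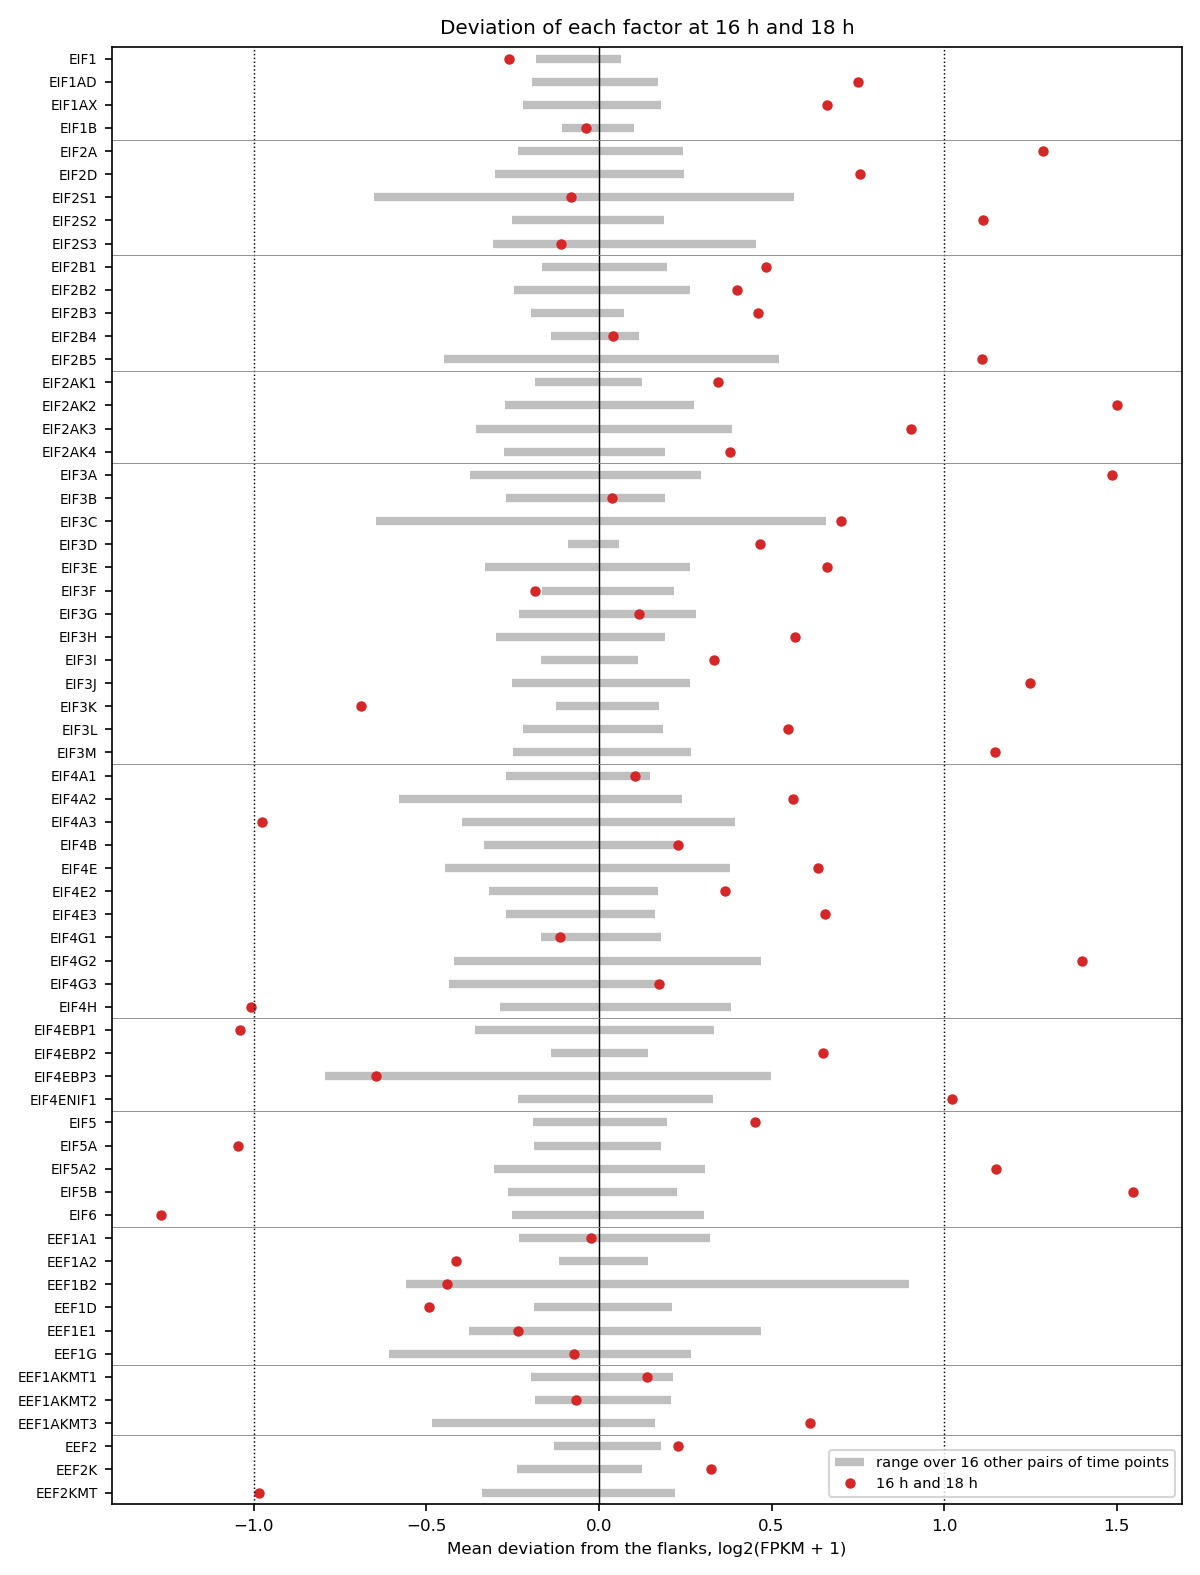
Deviation at 16 h and 18 h of each of the 63 factors (red points, log2(FPKM + 1)), with the range over 16 other pairs of time points as grey bars, factors grouped by role and dotted lines at 2-fold. EIF5B is farthest above at 1.55 and EIF6 farthest below at -1.27. All 6 points of the group listed as eEF1 by symbol lie below 0, with EEF1A1, EEF1B2, EEF1E1 and EEF1G within their grey bars.

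The factors of subunit joining held the extremes in both directions. EIF5B, the GTPase that joins the subunits, had 121 FPKM at 14 h, stood at 317 and 380 FPKM at 16 h and 18 h and was back at 115 FPKM at 20 h, a deviation of 1.55 (2.93-fold). Its 22 other values lay between 94.8 and 145 FPKM, and those of 16 h and 18 h did not overlap them. EIF6, which keeps the large subunit from joining too early, had 143 FPKM at 14 h, 62.3 and 49.4 FPKM in the anomalous pair and 128 FPKM at 20 h, a deviation of -1.27 (2.41-fold lower). Its lowest other value was 95.5 FPKM. EIF5A went from 449 FPKM at 14 h to 218 and 185 and back to 384, a deviation of -1.05, and its paralog EIF5A2 from 6.37 FPKM to 18.8 and 21.2 and back to 11, a deviation of 1.15. The ratio of EIF5A to EIF5B, 2.82 to 4.06 at all 22 other time points, was 0.69 at 16 h and 0.49 at 18 h.

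In the eIF3 complex 11 of 13 subunits were above 0 (EIF3B and EIF3G not under every scaling), with a median of 0.55, and 3 were 2-fold above. EIF3A, the largest subunit, had 91.8, 234, 264 and 84.2 FPKM at 14 h, 16 h, 18 h and 20 h (deviation 1.49). EIF3J, a loosely bound subunit near the decoding site, had 159, 327, 381 and 138 FPKM at the same time points (1.25), and EIF3M had 542, 1157, 1295 and 561 FPKM (1.15). The values of these subunits at 16 h and 18 h lay above all their others. EIF3K went the other way, with 353, 234, 209 and 362 FPKM, a deviation of -0.69. EIF3F, at -0.19, was the other subunit below 0.

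The factors around eIF2 lay mostly above their flanks. The beta subunit EIF2S2 had 73.2, 150, 167 and 71.8 FPKM from 14 h to 20 h (deviation 1.11), whereas EIF2S1 and EIF2S3, the alpha and gamma subunits, deviated by -0.08 and -0.11, within their reference pairs. EIF2A, which despite its name is a separate factor able to bind initiator tRNA, had 98.9, 225, 238 and 89.8 FPKM (1.29). All 5 eIF2B subunits were above 0, although EIF2B4, at 0.04, turned with the scaling, and EIF2B5 was 2-fold above with 65.1, 121, 136 and 53.2 FPKM (1.11). All 4 kinases of eIF2 were above 0. EIF2AK2 had 13.6, 39.6, 45.7 and 15.2 FPKM, a deviation of 1.5, and EIF2AK3 at 0.90 lay just inside the 2-fold threshold. EIF2AK1 and EIF2AK4 deviated by 0.34 and 0.38. Among 9 genes listed for the stress response, 4 were above 0, against 58.1% of all genes, and 5 below, with a median of -0.12. Not all act downstream of these kinases, since the list includes genes that serve to dephosphorylate eIF2. ATF4 (-0.37), DDIT3 (-0.95), TRIB3 (-1.05), PPP1R15A (-0.12) and PPP1CA (-0.26) were below 0. NCK1 (0.88), PPP1CB (0.80), PPP1CC (0.91) and PPP1R15B (0.07) were above. ATF4, PPP1R15A and PPP1R15B lay within their reference pairs.

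Around the cap the paralogs parted. EIF4G2 (DAP5), a scaffold that lacks the eIF4E-binding site, had 462, 1172, 1361 and 494 FPKM from 14 h to 20 h, a deviation of 1.40, whereas EIF4G1, which binds eIF4E, had 219, 188, 184 and 184 FPKM, a deviation of -0.11 within its reference pairs. Their ratio, 0.31 to 0.58 elsewhere, was 0.16 at 16 h and 0.13 at 18 h. EIF4EBP1 had 88.7, 48, 36.9 and 86.6 FPKM (-1.04) and EIF4EBP2 47.2, 72.4, 74.5 and 45.8 FPKM (0.65), so that their ratio of 1.2 to 1.89 elsewhere turned to 0.66 and 0.50. EIF4EBP3 was at 0.43 FPKM at 16 h and listed at 0 at 18 h, with a deviation of -0.65 inside its reference range. EIF4ENIF1 (4E-T), which carries eIF4E into the nucleus and into P-bodies, had 9.59, 20.7, 20.4 and 9.60 FPKM (1.02). EIF4H, a helper of the helicase eIF4A, had 107, 54.5, 49.0 and 103 FPKM (-1.01). EIF4A3, the helicase of the exon junction complex, deviated by -0.98 and EIF4A1 by 0.10. The value of EIF4A3 at 16 h, 55.7 FPKM, was no lower than at 32 h, 55.6 FPKM.

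In elongation no member was 2-fold off, the modifying enzymes included. All 6 genes grouped here as eEF1 by symbol were below 0, with a median of -0.33, and none was 2-fold off. The grouping by symbol, as of EEF1E1, does not by itself mean a part in elongation. EEF1A1, EEF1B2, EEF1E1 and EEF1G lay within their reference pairs. With the trend with GC content taken out, as described below, EEF1A2 (0.36) and EEF1G (0.05) lay above 0. EEF1E1 (-0.78), EEF1B2 (-0.62), EEF1A1 (-0.24) and EEF1D (-0.005) then lay below 0, and EEF2 was at 0.64. Before that removal EEF1D, an exchange factor for eEF1A, had the largest deviation of the group, -0.49, with 280, 180, 202 and 258 FPKM from 14 h to 20 h. EEF1A1 deviated by -0.02 and EEF2 by 0.23. Of the modifying enzymes, EEF2KMT, a methyltransferase of eEF2, lay just inside the threshold at -0.98 with 12.0, 5.50, 4.25 and 9.28 FPKM, EEF2K was at 0.32 and EEF1AKMT3 at 0.61. Of the eIF1 group, EIF1AD, which shares a domain with eIF1A, deviated most, by 0.75.

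**Figure D3:**
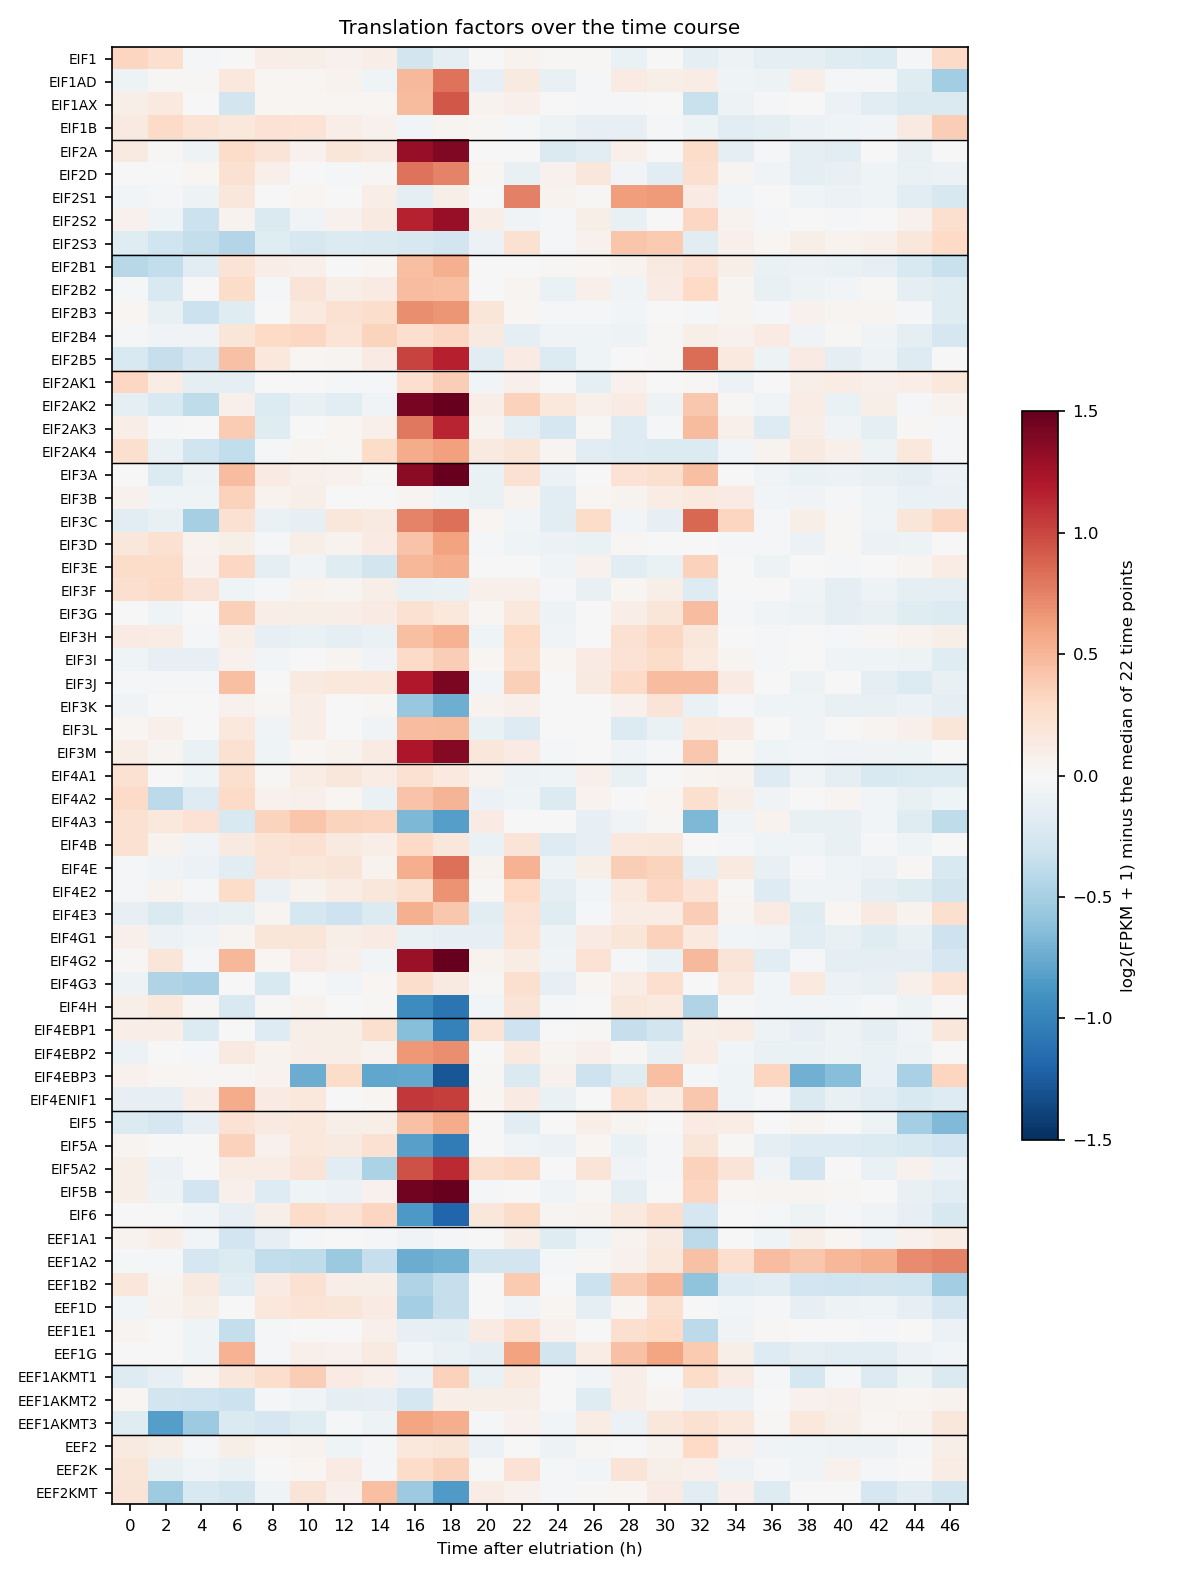
Level of the 63 factors (rows, grouped by role) at 24 time points in hours (columns), as log2(FPKM + 1) minus the median of the 22 time points that leave out 16 h and 18 h, with the colour scale ending at -1.5 and 1.5. The 16 h and 18 h columns carry most of the strong colours in both directions, 32 h repeats many of them more faintly, and EEF1A2 goes from blue to red along the series.

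GC content moved with these deviations. The 11 factors 2-fold above had a GC content of 34.3% to 51.7% in their longest annotated transcript, and the 4 below had 52.7% to 65.5%, with median lengths of 5051 and 1400 bases. Across the 63 factors the deviation correlated with GC content at Pearson's r = -0.58 and Spearman's rho = -0.55, and with length at rho = 0.47. These are correlations across genes that share the same libraries, given as a description. Across all genes with a known GC content they were -0.51, -0.56 and 0.30. Below 40% GC the median of 14 factors was 0.66, against 0.55 for all genes in that range, from 40% to 50% it was 0.43 over 30 factors, against 0.31, and from 50% it was -0.11 over 19 factors, against -0.31. The trend with GC content over all genes was then taken out, an alternative added after the data were seen for this count. With it removed, 4 factors were 2-fold off: EIF3A (1.10), EIF4ENIF1 (1.06) and EIF2B5 (1.01) above and EIF4A3 (-1.18) below. These were 4.76% of the factors above and 1.59% below, against 5.44% and 3.98% of all genes, so the share of factors past 2-fold was then under that of all genes. EIF4A3 had been short of 2-fold before, at -0.98. The 4 factors first 2-fold below were then at -0.97 (EIF4H), -0.91 (EIF6), -0.72 (EIF5A) and -0.22 (EIF4EBP1). The median over the factors was then 0.11. The part of GC content or length in the deviations was not tested.

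**Figure D4:**
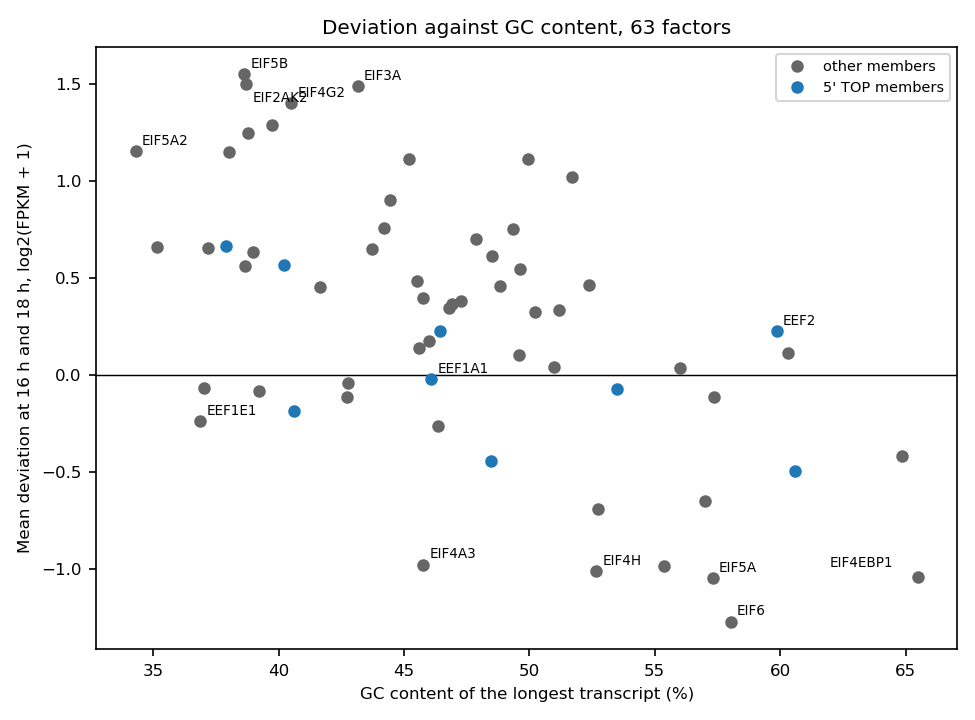
Deviation at 16 h and 18 h (log2(FPKM + 1)) against the GC content of the longest transcript (%) for the 63 factors, with those on the 5′ TOP list in blue. Points fall from upper left to lower right (Pearson's r = -0.58), with EIF4A3 low at a middling GC content and no blue point beyond 2-fold.

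The 9 factors on a list of 5′ TOP messengers (EEF1A1, EEF1B2, EEF1D, EEF1G, EEF2, EIF3E, EIF3F, EIF3H and EIF4B) had a median deviation of -0.02, with 4 above and 5 below 0 and none 2-fold off. The other 54 factors had a median of 0.39. For 80 cytosolic ribosomal proteins, which the 5′ TOP motif is best known for, the median was -0.73. Of these, 16 were above 0, against 58.1% of all genes, and 64 below. Past 2-fold, 2 were above, against 8.95%, and 26 below, against 7.11%. To show what these messengers begin with, 30 bases around the annotated start were read for 50 factors from RefSeq promoters (GRCh38.p14). Lower case is used for all bases except the longest unbroken run of C or T on the transcribed strand that reaches within 5 bases of the start, which is in capitals. The first base of the transcript is the base after the first 15. EEF1A1, EEF2, EIF3F and EIF4B are shown as listed members with a run of 6 or more, EEF1G as one without, EIF2A and EIF3M as members outside the list that have such a run and were 2-fold above at 16 h and 18 h, and EIF5B and EIF6 as the extremes of the deviation.
EEF1A1: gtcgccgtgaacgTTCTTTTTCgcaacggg
EEF2: gttgacgtcagcgTTCTCTTCCgccgtcgt
EIF3F: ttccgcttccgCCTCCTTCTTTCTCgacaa
EIF4B: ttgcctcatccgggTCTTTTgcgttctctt
EEF1G: tctcccgggcggcttaCTTTgcggcagcgc
EIF2A: tcacccgagcggTTTCTCTTTCCgggacaa
EIF3M: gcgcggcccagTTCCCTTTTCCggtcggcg
EIF5B: gcgcactgagaaCTCacaccatatgtgtcc
EIF6: ttacttggtaagCTggtgtgaggggaacct
In this order the windows are chr6:73521018-73521047 on the minus strand, chr19:3985449-3985478 (minus), chr11:7987322-7987351 (plus), chr12:53006441-53006470 (plus), chr11:62573877-62573906 (minus), chr3:150546772-150546801 (plus), chr11:32583816-32583845 (plus), chr2:99337374-99337403 (plus) and chr20:35284703-35284732 (minus). They span the upstream flank and the start of the first exon. The start used in these cells may differ from the annotated one.

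A run of at least 6 was present in 18 of the 50 factors (36.0%), in 4 of 6 listed members with a window and in 22.2% of all 35116 RefSeq promoters. The promoters were not held to 1 per gene or to genes of the expression table, as the factors were, so these shares are of unlike sets. The run was 9 bases in EEF1A1 and EEF2 and 14 in EIF3F. The 18 factors with such a run had a median deviation of 0.34, with 12 above 0, and the 32 with a shorter run 0.35, with 21 above 0. Of those with such a run 5 were 2-fold above and 1 below, and of the others 4 and 2. The run does not always cover the annotated start. In EIF1, EIF2B5, EIF4G3, EIF5 and EIF5A2 it ends upstream of the first base, and in EIF3J and EIF4H it begins after that base. EIF2B5, EIF3J and EIF5A2 are among those 2-fold above, and EIF4H is the 1 below. The comparison is therefore not one of runs at the cap. EIF3M and EIF2A carry runs of 11 and were above 2-fold, whereas EEF1A1 and EEF2 carry runs of 9 and deviated by -0.02 and 0.23.

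Other parts of the translation machinery were read from lists of genes outside the set. Over all genes 58.1% were above 0, 8.95% at least 2-fold above and 7.11% at least 2-fold below. Of 8 genes of termination and recycling, 6 were above and 2 below 0, with a median of 0.50. GSPT1, the release factor eRF3a, was the member past 2-fold, with 161, 312, 341 and 159 FPKM from 14 h to 20 h (1.02). Of 17 genes of mTOR and cap control, 12 were above 0, 5 of them past 2-fold, and 2 of the 5 below 0 were past 2-fold. Those 2-fold above were PABPC4 (1.90), PABPC1 (1.30), PDCD4 (1.16), RHEB (1.11) and PAIP1 (1.05), and those below MKNK2 (-1.04) and RPS6KB2 (-1.03). PABPC4 had 266, 935, 1091 and 276 FPKM from 14 h to 20 h. PDCD4, which binds and inhibits eIF4A, had 39.1, 92.2, 86.2 and 39.8 FPKM. Of 9 enzymes that make hypusine on eIF5A or diphthamide on eEF2, 6 were below 0. DOHH, the hydroxylase of the last step to hypusine, had 25.8, 12.7, 7.48 and 23.5 FPKM (-1.25), in the same direction as EIF5A. The 9 listed mitochondrial translation factors had a median of 0.17. GSPT1, DOHH and the genes of mTOR and cap control given here were named after their values were seen.

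The deviations at 6 h and 32 h were smaller and mostly had the same sign as those at 16 h and 18 h. At 6 h no factor was 1.5-fold off the mean of its neighbours, against 4.31% of all genes. At 32 h 4 were, against 6.77%: EIF3C (0.76, 7.98 FPKM between 3.56 and 5.18) and EIF2B5 (0.76, 107 FPKM between 60.4 and 66.0) above, EEF1B2 (-0.76, 76.8 FPKM between 165 and 103) and EIF4A3 (-0.66, 55.6 FPKM between 90.9 and 86.6) below. For EEF1B2 the value at 32 h was the lowest outside 16 h and 18 h, but its neighbour at 30 h was the highest, which enlarges this deviation. The sign at 32 h was that of 16 h and 18 h in 51 of 63 factors, and in 70.4% of all genes. Across the factors the values at 32 h and at 16 h and 18 h correlated at Pearson's r = 0.65 and Spearman's rho = 0.70 (all genes, 0.60 and 0.58), and those at 6 h at 0.55 and 0.54 (all genes, 0.49 and 0.41), with the sign shared in 50 factors and in 63.05% of all genes. They share no library, although each set shares its libraries among all genes.

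A different group of factors was high at 22 h, 28 h and 30 h, a comparison chosen after the values were seen. EIF2S1 had 325, 296 and 301 FPKM there, against 163 to 216 FPKM at the other 19 time points, with no overlap. Relative to 20 h, 24 h, 26 h and 34 h its level was 1.58-fold higher. EEF1G had 491, 440 and 486 FPKM, 1.52-fold higher, although it also reached 464 FPKM at 6 h. These 2 factors were at least 1.5-fold above, against 1.18% of all genes, and none was 1.5-fold below, against 0.963%. EEF1B2 (1.46-fold), EIF4E (1.28-fold) and EIF2S3 (1.27-fold) followed. EIF4EBP1 lay at the other end with 60.6, 59.1 and 62.1 FPKM, below its lowest other value outside 16 h and 18 h, 65.4 FPKM. The ratio of EIF2S1 to EIF2S2, 2.80 at the median, reached 5.04 at 22 h. In the annotation EIF2S1 shares exon sequence with ATP6V1D on the other strand and EEF1G with AP002990.1 on its own, and reads of such pairs may be mixed. Each of these time points is 1 library, so library and time cannot be told apart.

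Order in time was asked with the JTK statistic, which compares the ranks of a gene's 24 values with a cosine of 24 h at 12 phases, with a permutation p adjusted by Benjamini-Hochberg over all 12285 genes. Time points stand in for replicates in it, so a slow drift also lowers p. Of the factors, 5 passed an adjusted p of 0.05 (7.94%, against 11.9% of all genes). EIF2AK4 came first (adjusted permutation p = 0.00223, best phase 18 h). Its level was 13.1 FPKM at 6 h, 21 FPKM at 14 h and 26.8 FPKM at 18 h on the first day, and 14.7 FPKM at 32 h and 19.3 FPKM at 44 h on the second. EIF2B3, the gamma subunit of eIF2B, followed (adjusted permutation p = 0.00806, best phase 16 h). It had 66.6 FPKM at 4 h, 100.7 FPKM at 14 h and 136 FPKM at 16 h. On the second day its highest level was 87.4 FPKM at 38 h and its lowest 73.5 FPKM at 46 h. The others were EIF3B (adjusted permutation p = 0.0264), EIF4G1 (0.0280) and EIF5A (0.0467), with best phases of 8 h, 6 h and 6 h. CCNE2 and CCNB1, cyclins of the G1/S and G2/M transitions, had adjusted permutation p of 0.00509 and 0.141.

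Without 16 h and 18 h, 9 factors passed (14.3%, against 16.2%), of which EIF2AK4, EIF2B3 and EIF3B were among the 5 above. EIF4G1 and EIF5A then had adjusted permutation p of 0.0543 and 0.0696. The 6 that passed only here were EIF5 (adjusted permutation p = 0.0175), EIF3A, EIF2B1, EIF2B4, EEF1AKMT1 and EIF4ENIF1. EIF5, the GTPase activator of eIF2, went from 166 FPKM at 2 h to 230 at 6 h and ended at 126 at 46 h. In this fit without 16 h and 18 h the best phase was 6 h to 10 h in 35 of 63 factors (55.6%) and 34.3% of all genes, although 7 of these 35 passed. Without 6 h and 32 h as well, an alternative added after the data were seen, 2 of 63 factors passed (EIF2B3 and EIF5), against 9.04% of all genes.

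The second day was set against the first at 10 pairs of time points 24 h apart, leaving out the pairs with 16 h or 18 h, by a two-sided exact sign-flip permutation test adjusted over 12253 genes. The smallest p it can give is 0.00195. It treats the pairs as independent, although they come from successive time points of 1 series, so a slow drift also lowers this p. An unadjusted p of at most 0.05 by this test was found for 32.9% of all genes and 20.6% of the factors. Of the factors, 3 rose (4.76%, against 8.72% of all genes) and 2 fell (3.17%, against 4.73%). EEF1A2 rose by 0.60 ± 0.39 on the log2 scale (SD over 10 pairs), from a mean of 5.42 to 8.81 FPKM, in 10 of 10 pairs (adjusted p = 0.0292, exact sign-flip). Its lowest value outside 16 h and 18 h was 4.23 FPKM at 12 h and its highest 11.96 FPKM at 46 h. EIF2S3 rose by 0.33 ± 0.27, from 235 to 296 FPKM, and EEF1AKMT3, a methyltransferase of eEF1A, by 0.32 ± 0.27, from 5.60 to 7.13 FPKM, each in 10 of 10 pairs and with the same adjusted p. EIF2B4 fell by 0.15 ± 0.13, from 48.9 to 43.7 FPKM, in 10 of 10 pairs (adjusted p = 0.0292, exact sign-flip). EIF4A3 fell by 0.34 ± 0.31, from 103 to 81.4 FPKM, in 9 of 10 pairs (adjusted p = 0.0436, exact sign-flip).

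The next in size did not pass. EIF3C, EIF4E3 and EIF4G3 differed by 0.22, 0.19 and 0.18 on the log2 scale, and EEF1B2, EIF5A and EIF1B by -0.26, -0.17 and -0.17, with adjusted p of 0.0570 to 0.241 by the exact sign-flip test. EIF5A was lower in 8 of 10 pairs. The median difference was -0.05 over the factors and 0.01 over all genes. Without the pairs that hold 6 h or 32 h, 8 pairs were left, and no gene of the table passed, since the smallest adjusted p was then 0.0774. Of the factors, 15 (23.8%) had an unadjusted p under 0.05 in these 8 pairs, against 28.6% of all genes. The differences of the 5 factors above kept their sign and lay close to those of the 10 pairs, from -0.33 for EIF4A3 to 0.60 for EEF1A2. Over all 12 pairs, 16 h and 18 h included, EEF1AKMT3 (adjusted p = 0.328, exact sign-flip) and EIF4A3 (0.451) did not pass. The second day follows the first in 1 series, so time since elutriation and the cell cycle cannot be told apart.

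**Figure D5:**
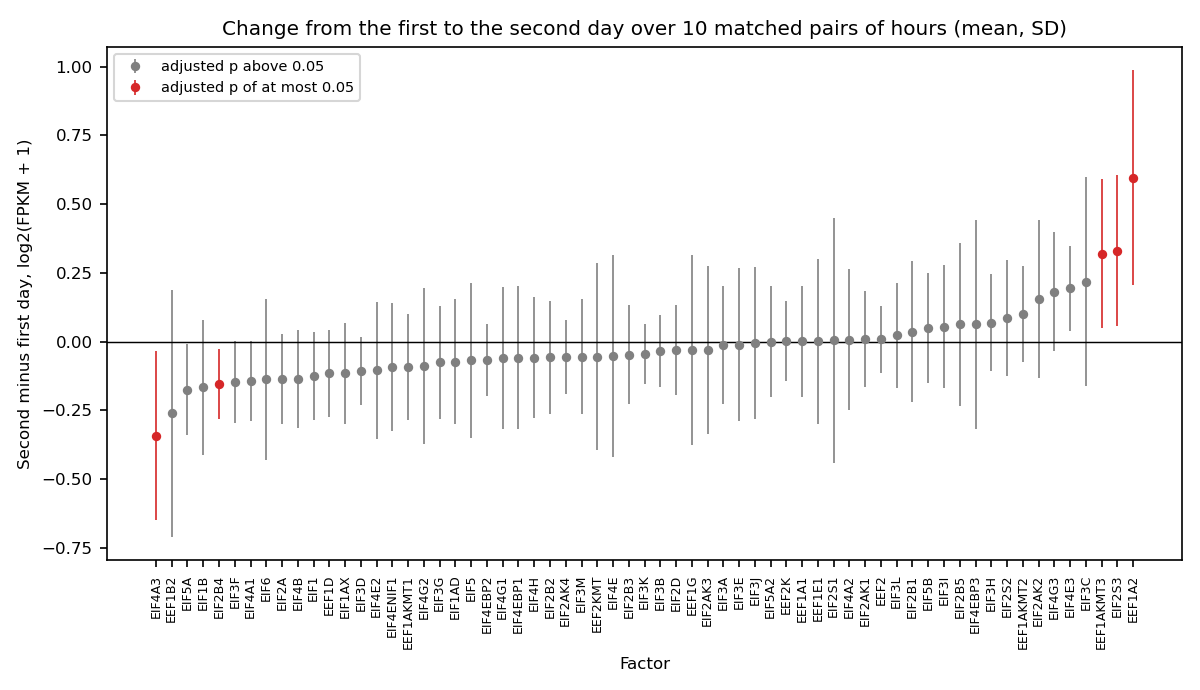
Mean difference of the second from the first day for each of the 63 factors over 10 matched pairs of time points (log2(FPKM + 1), bars are the SD over pairs), in order of size, with those past an adjusted p of 0.05 in red. EIF4A3 and EIF2B4 are the red points below 0 and EEF1AKMT3, EIF2S3 and EEF1A2 the red points at the upper end.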

How the data were processed

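RNA of 24 samples was sequenced by the authors on an Illumina HiSeq. According to the labels and methods they used STAR, Cufflinks and Cuffnorm on build GRCh37 (versions not given in the sources used here) and deposited FPKM values per gene. A second deposited table holds a score per gene and time point, the authors' cleaned version, with the same sorted values in every column, used as an alternative. Samples were assigned to time points, and columns to samples, from the labels, and 0 columns were left unused. Each listed gene had at least 1 FPKM at 12 or more time points. Low FPKM of 1011 genes did not fall on whole reads (at most 28.3% within 0.1 of a whole read, and 28.2% when scrambled), so depth is unknown and no count model was used.

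Gene type, length and GC content came from GENCODE 29 (GRCh38), matched for 12180 genes. Strand use in counting is not stated, and 22 factors share exon sequence with another listed gene. Deviations, JTK and sign-flip tests used Python 3.11.15, numpy 2.4.6, scipy 1.17.1 and pandas 2.3.3, with a pseudocount of 1, a mean of at least 1 FPKM (not for JTK) and 100000 orderings for JTK, and were tested on simulated data. p-values rest on the spread between time points of 1 series. Named are the highest and the most deviating member of each factor group, all members 2-fold off, the 5 ranked first by JTK, the 5 largest rises and falls between days, the kinases, the repressors and paralog pairs; others were named after their values were seen. The members and lists were chosen with earlier results of these data known. Alternatives were other pseudocounts, filters, thresholds, scalings, periods and sets of time points. One list of markers of another cell type is not reported here.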

Additional observations from a re-analysis of the deposited data

How the results depend on the processing

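Of 33 alternatives 19 left a value near the one reported, and 3 more were added after the data were seen. The count of factors 2-fold off at 16 h and 18 h (15) was 4 with the GC trend removed (then a smaller share than over all genes). At a 1.5-fold threshold it was 29, with 21 above and 8 below of 63, against 2933 and 2060 of 12253 genes. Under the others it was 11 to 19. At 16 h alone 10 were above and 1 below, against 892 and 775 of 12253 genes. At 18 h alone 12 were above and 7 below, against 1334 and 1061. The median deviation was 0.34, and 0.23 with each time point centred on its median, 0.11 with upper-quartile scaling, 0.41 at 18 h alone and 0.11 with the GC trend removed. The 5 factors ordered in time became 9 without 16 h and 18 h, 2 with a 20 h period, 1 with a 28 h period and 2 without 6 h, 16 h, 18 h and 32 h, and 6 in the cleaned table. The 5 that differed between days (13.4% of all genes) became 0 over 8 pairs, where no gene passed. At a mean of at least 10 FPKM they became 3 (12.5% of all genes). They became 8 after centring (3 higher, 5 lower, against 3 and 2), with 16.1% of all genes, and 9 with upper-quartile scaling (15.8%). Over 12 pairs 2 were higher and 4 lower (16.8% of all genes). The 25 even factors (39.7%, against 32.2% of all genes) became 11 over all 24 time points (17.5%, against 11.3%). Without 6 h and 32 h they became 40 (63.5%, against 42.7%). At a mean of at least 10 FPKM they were 25 of 55 (45.5%, against 41.3%). Beyond the alternatives' own construction, the cause was not tested. Hours were paired by their times. Replicate numbers could pair nothing, as each time point holds 1 sample. With no replicates and unknown depth, differences at a single time point, and levels near 1 FPKM such as those of EIF4E3 and EIF4EBP3, have no measured error.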

Other observations

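Over 22 time points, leaving out 16 h and 18 h, with each time point centred on its median, the levels of any pair of factors correlated at a median Pearson's r of 0.14 over all 1953 pairs, and of 0.0025 over all pairs of genes. Within eIF2B the median over 10 pairs was 0.55, within eIF3 0.20 over 78 pairs and within the eIF2 group 0.04 over 10 pairs. The eIF2 group holds EIF2A and EIF2D beside the alpha, beta and gamma subunits, so its median is not that of the subunits alone. Its most alike pair was EIF2A and EIF2D at 0.41. The pair of eIF3 subunits most alike was EIF3A and EIF3G at 0.90. These correlations are descriptions, since all genes share the same libraries, 6 h and 32 h among them.

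The time points at which single factors were highest or lowest were uneven. Of 63 factors, 17 were highest at 32 h (15.8% of all genes), 12 at 30 h (6.07%) and 9 at 6 h (12.2%), and 13 were lowest at 46 h (10.8%), among them EIF5, EIF5A, EIF4G1, EIF4G2, EIF4E and EIF2S1.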
